A study of Mus musculus with 2 samples.

Results

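Costimulatory receptors decide how strongly an activated lymphocyte in a tumor divides and survives, and 7 of their genes were followed here: Tnfrsf4, Tnfrsf9, Tnfrsf18, Cd27, Cd40, Icos and Cd70. The list was set by name, all 7 are present among the 16416 genes of the deposited single-cell table, and each was read in 11 cell classes and 22 clusters of the deposited annotation. Only 5 of the 7 are receptors of the tumor necrosis factor (TNF) receptor family. Cd70 is a ligand of the TNF family, and Icos is a receptor of the CD28 family.

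The cells came from tumors engrafted in S303/7A mice, in which serines 303 and 307 of heat shock factor 1 (HSF1) are replaced by alanine, and in WT mice. The labels give no age, strain or tumor line, and the design text speaks of pooling tumors from 4 mice, so each genotype is 1 library without replicates. Tumors were digested with Liberase and DNase, live CD45+ and CD45- cells were sorted and mixed 5 to 1, and 3′ libraries were made in droplets (10x Genomics, version 2). The S303/7A library held 4802 cells and 72802161 UMIs (unique molecular identifiers, each marking 1 captured RNA molecule), and the WT library held 6654 cells and 87075636 UMIs.

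Receptors of the TNF family have no enzyme activity of their own. When their ligand binds, they recruit TRAF adaptor proteins, which switch on NF-kB transcription factors and survival genes. Tnfrsf4 (OX40), Tnfrsf9 (4-1BB) and Tnfrsf18 (GITR) are induced or raised on activated T cells and are high on regulatory T cells in tumors, CD27 is carried by T and NK cells and binds CD70, and CD40 is carried by antigen-presenting cells. ICOS signals through phosphoinositide 3-kinase instead of TRAF adaptors.

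A level below is the number of a gene's UMIs per 10000 UMIs of all genes, summed over the cells of a class in a library. A UMI ratio is the S303/7A level over the WT level with an exact 95% interval, and it is called past the fold when it is above 1.5 or below its inverse. All intervals cover counting error only, and no ratio has a replicate check or a p-value. The median S303/7A cell had 13028 UMIs, against 7698 UMIs in WT, so a gene can take a smaller share of UMIs while its UMIs per cell are not fewer, and both are given where they part. Of the cell barcodes, 48 occurred in both libraries, 13 of them in the same class.

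Tnfrsf4 (chr4:156013843-156016612, plus strand, GRCm38) and Tnfrsf18 (chr4:156026164-156028895, plus strand) lie 9551 bases apart, with 2 other annotated genes between them. Tnfrsf9 lies on the same chromosome (chr4:150914562-150946102, plus strand) and Cd27 on chromosome 6 (chr6:125232622-125237010, minus strand). Cd40 is at chr2:165055627-165072948 (plus strand), Icos at chr1:60977927-61000320 (plus strand) and Cd70 at chr17:57145997-57149777 (minus strand). Camta1 overlaps Tnfrsf9 on the other strand, Gm16008 is antisense to Tnfrsf18, and Vamp1 overlaps Cd27 on the other strand, while Mir8113 overlaps Cd27 and Gm37039 overlaps Icos on the same strand. Whether the counting used strand is not given in the sources used here, so reads of such pairs may be mixed.

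RefSeq promoter windows, 250 bases before to 50 bases after a start site, were at hand for 4 of the 7 genes. They are shown because NF-kB acts downstream of these receptors and HSF1 is the mutated factor. Capitals mark a match to the kappaB core (3 G, any 5 bases, 2 C), searched on both strands, and 1 of the 2 windows of Tnfrsf9 is printed.

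Tnfrsf4 (chr4:156013445-156013744, plus strand): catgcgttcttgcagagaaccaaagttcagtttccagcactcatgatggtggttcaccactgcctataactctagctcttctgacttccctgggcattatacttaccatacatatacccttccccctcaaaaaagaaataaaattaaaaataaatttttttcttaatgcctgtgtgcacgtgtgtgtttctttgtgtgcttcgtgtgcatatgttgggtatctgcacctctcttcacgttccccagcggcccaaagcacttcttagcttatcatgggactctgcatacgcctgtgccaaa

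Tnfrsf18 (chr4:156026072-156026371, plus strand): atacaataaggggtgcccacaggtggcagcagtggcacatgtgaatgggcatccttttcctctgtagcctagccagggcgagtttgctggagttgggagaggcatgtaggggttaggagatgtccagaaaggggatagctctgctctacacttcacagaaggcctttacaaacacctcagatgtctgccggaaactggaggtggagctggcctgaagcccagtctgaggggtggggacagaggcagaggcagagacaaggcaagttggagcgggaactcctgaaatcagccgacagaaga

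Tnfrsf9 (chr4:150927749-150928048, plus strand): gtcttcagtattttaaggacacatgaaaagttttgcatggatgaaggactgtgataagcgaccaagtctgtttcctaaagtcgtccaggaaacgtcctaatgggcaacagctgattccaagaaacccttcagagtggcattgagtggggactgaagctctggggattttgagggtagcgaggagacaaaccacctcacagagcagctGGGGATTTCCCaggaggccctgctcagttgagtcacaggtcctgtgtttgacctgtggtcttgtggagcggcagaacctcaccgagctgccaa

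Cd27 (chr6:125236978-125237277, minus strand): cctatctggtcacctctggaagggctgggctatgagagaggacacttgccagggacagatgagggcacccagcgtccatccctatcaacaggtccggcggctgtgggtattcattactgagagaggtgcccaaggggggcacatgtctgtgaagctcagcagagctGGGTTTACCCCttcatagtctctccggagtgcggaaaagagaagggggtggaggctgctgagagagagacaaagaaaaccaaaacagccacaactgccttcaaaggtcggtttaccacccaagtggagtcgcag

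In the printed Tnfrsf9 window 2 overlapping kappaB cores begin at offsets -43 and -42 from the start site, and in the Cd27 window 2 begin at -84 and -83. The Tnfrsf4 and Tnfrsf18 windows, and the other Tnfrsf9 window, hold none. This motif is common, with a match in 50.8% of 32851 mouse promoters of 300 bases. The paired heat shock element GAANNTTC, found in 7.86% of those promoters, is in none of these windows. The Tnfrsf4 window follows RefSeq's start site and ends before the GENCODE gene start given above.

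Regulatory T cells (Treg, 220 S303/7A and 255 WT cells) had the highest level of Tnfrsf4, Tnfrsf9, Tnfrsf18, Cd27 and Icos among the 11 classes in both libraries. The defining Treg markers Foxp3, Il2ra and Ctla4 were themselves highest in that class, so the label holds, while Cd4 was highest in plasmacytoid dendritic cells (pDC). Tnfrsf4 was at 12.8 UMIs per 10000 in S303/7A Treg and 25 in WT Treg. Cytotoxic T cells (CD8T) came next in S303/7A at 1.81, ahead of dendritic cells (DC) at 0.620, while in WT these classes did not differ beyond their Poisson intervals, at 1.17 (1.08 to 1.27) in CD8T and 1.21 (1.05 to 1.38) in DC. S303/7A NK cells held 0.0912 (0.0455 to 0.163), with an interval that overlaps that of stromal cells at 0.0610 (0.0245 to 0.126). WT NK cells held 0.153 (0.0948 to 0.234), above WT stromal cells at 0.0336 (0.00916 to 0.0860). The 5 richest WT NK cells held 95.2% of the Tnfrsf4 UMIs.

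Tnfrsf9 and Tnfrsf18 differed from Tnfrsf4 in NK cells, where both were close to their CD8T levels. Tnfrsf9 was at 2.66 UMIs per 10000 in S303/7A NK cells and 2.79 in WT NK cells, beside 3.56 and 2.95 in S303/7A and WT CD8T. Tnfrsf18 was at 2.32 and 2.45 in S303/7A and WT NK cells, beside 2.66 and 2.16 in CD8T, with overlapping intervals in both libraries. The Poisson intervals of NK and CD8T overlapped for Tnfrsf9 in WT (2.52 to 3.09 and 2.80 to 3.10) but not in S303/7A (2.38 to 2.97 and 3.41 to 3.72). T cell genes were also seen in NK cells, Cd3g in 25.8% of S303/7A and 19.0% of WT cells and Cd3d in 21.1% and 15.4%. Trac was seen in 18.6% and 14.8%, and Cd3e in 14.4% and 8.96%. The part of T cell RNA in the NK levels of these members, and of Cd27 and Icos below, was not tested.

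Cd27 followed the T and NK lineages: 3.65 and 4.12 UMIs per 10000 in S303/7A and WT Treg, 2.11 and 2.12 in CD8T, and 1.44 and 1.41 in NK cells. Stromal cells, which should lack it, held 1 UMI in each library. Icos was at 6.70 and 9.80 in S303/7A and WT Treg, 0.701 and 0.677 in CD8T, and 0.299 and 0.423 in NK cells.

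Cd40 was at or below 0.0291 UMIs per 10000 in Treg, CD8T and NK cells of either library. Among the 8 classes with at least 50 cells in each library it was highest in monocytes (Mo), at 1.33 in S303/7A and 2.16 in WT, followed by DC at 0.818 and 0.994 and macrophages (MF) at 0.327 and 0.569. B cells, in which CD40 is well known, had 6 UMIs in 14 S303/7A cells and 4 UMIs in 47 WT cells, too few to place them. Cd70 was the rarest member, with 367 UMIs in the S303/7A library and 82 in the WT library.

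**Figure D1:**
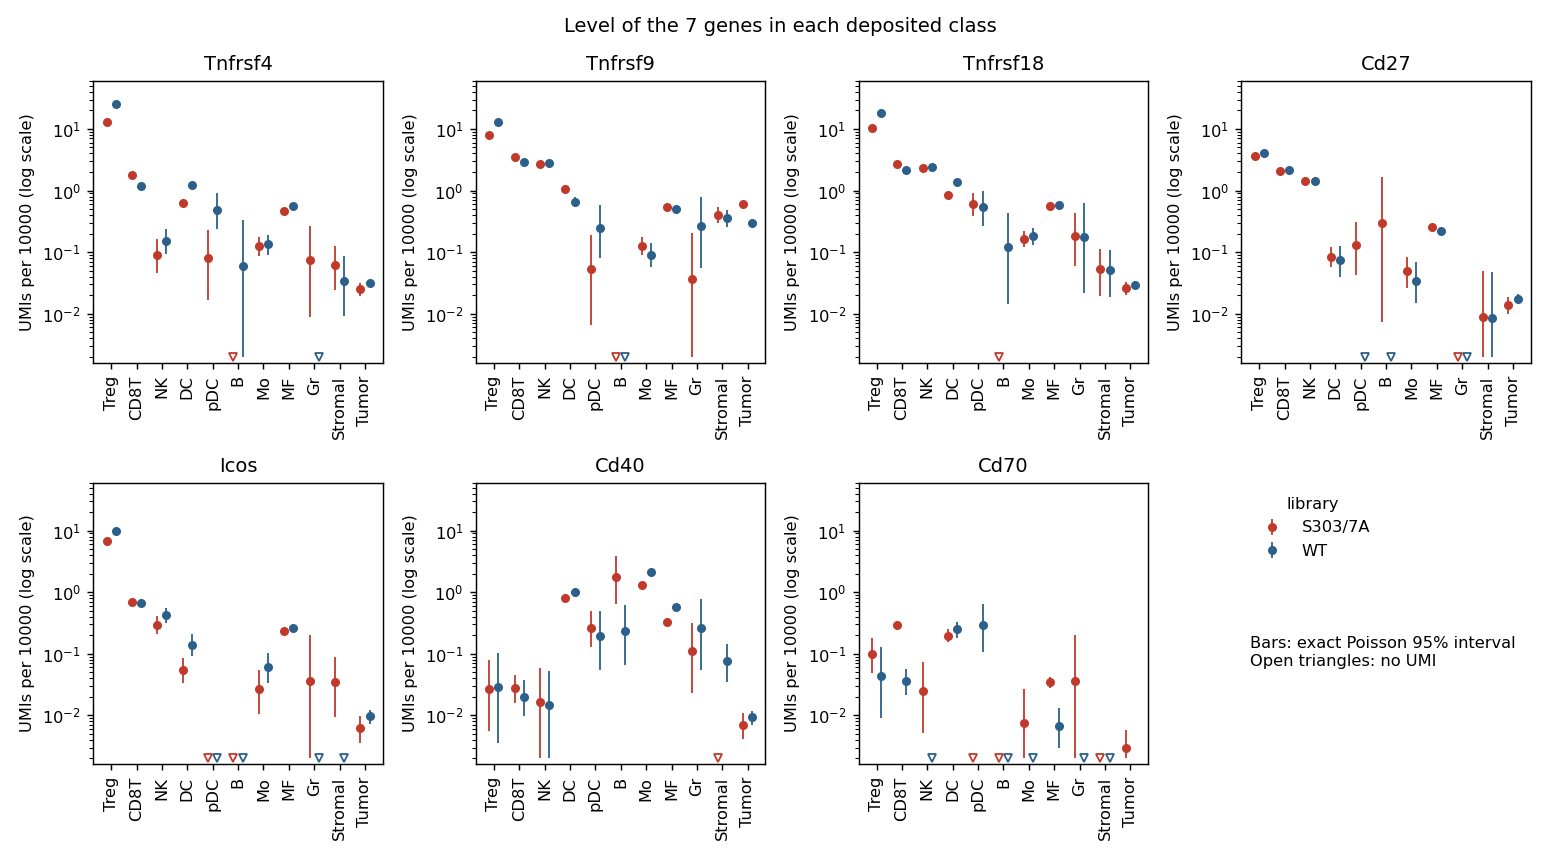
Level of each gene in UMIs per 10000 (log scale) in the 11 deposited classes, S303/7A left of WT, with exact Poisson 95% intervals; open triangles mark classes without a UMI. Tnfrsf4, Tnfrsf9, Tnfrsf18, Cd27 and Icos peak in Treg, Cd40 lies in the myeloid classes, and Cd70 stands apart between the libraries in CD8T.

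Across the 22 clusters the levels of Tnfrsf4 and Tnfrsf18 ran together (Pearson r = 0.90 of log2(level + 0.1), mean of both libraries), as did those of Cd27 and Icos (0.91). Cd40 had r between -0.30 and 0.25 with the other members. The gene outside the list most like Tnfrsf4 was Il2ra (0.950), followed by Sdf4 (0.891) and Sdcbp2 (0.889). Cd27 was most like Cd247 (0.982), Zap70 (0.977) and Gata3 (0.975), and Icos most like Ctla4 (0.977), Rora (0.962) and Cd6 (0.960). Tnfrsf9 was most like Cd247 (0.864), D16Ertd472e (0.852) and Cblb (0.845), and Tnfrsf18 most like Pkp3 (0.887), Nabp1 (0.885) and Pla2g16 (0.885). Cd40 was most like A530040E14Rik (0.906), Irf5 (0.900) and A530032D15Rik (0.897), and Cd70 most like Nr4a3 (0.929), Gm47662 (0.893) and Fam89a (0.875). Clusters share libraries and depth, so these values are descriptions.

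In Treg, Tnfrsf4, Tnfrsf18, Tnfrsf9 and Icos all took a smaller share of UMIs in the S303/7A library, while Cd27 differed least. Of the 5 members with at least 20 UMIs, 3 were past 1.5-fold lower and 0 higher, in a class where 13.5% of 6817 genes were past that fold lower and 8.39% higher. The median log2 ratio of the 5 was -0.68, beside -0.08 over all genes tested. Cd40 and Cd70 had 3 and 11 UMIs in S303/7A Treg, and 2 and 3 in WT Treg, and were not compared.

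Tnfrsf4, whose product OX40 sustains effector T cells and restrains Treg function when engaged, had 1419 UMIs in S303/7A Treg (12.8 per 10000) and 1718 UMIs in WT Treg (25 per 10000), a UMI ratio of 0.514 (0.479 to 0.552). Counted per cell the libraries were close, with 6.45 UMIs per S303/7A Treg and 6.74 per WT Treg. The median Treg had 5 Tnfrsf4 UMIs in S303/7A and 4 in WT, and the 5 richest cells held 10.2% and 14.5% of the UMIs. The lower share therefore stands beside near-equal UMIs per cell and a median depth of 3702 UMIs in S303/7A Treg against 2022 in WT Treg.

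Tnfrsf18, whose product GITR lowers suppression by Treg when engaged, was at 10.5 UMIs per 10000 in S303/7A and 18.2 in WT (0.576, 0.531 to 0.624), with 5.26 and 4.90 UMIs per cell. Tnfrsf9, whose product 4-1BB drives survival of activated T cells, was at 7.96 and 12.8 (0.623, 0.567 to 0.685), with 4.00 and 3.44 UMIs per cell. Icos, which helps maintain Treg in tissues, was at 6.70 and 9.80 (0.683, 0.614 to 0.759), with 3.36 and 2.64 UMIs per cell. These 3 genes thus had a lower share and more UMIs per cell in S303/7A. For Cd27 the ratio was 0.886 (0.759 to 1.03), with 1.83 UMIs per S303/7A cell and 1.11 per WT cell.

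More S303/7A Treg held at least 1 UMI of each gene at full depth, and for the first 4 genes fewer did at equal depth. Tnfrsf4 was seen in 84.5% of S303/7A Treg and 76.9% of WT Treg, but after thinning each cell to 1000 UMIs in 67.5% (60.7 to 73.8) and 70.1% (63.5 to 76.1). The thinned shares were 67.0% and 74.8% for Tnfrsf18, 50.7% and 58.9% for Tnfrsf9, and 49.3% and 56.1% for Icos, each pair with overlapping intervals. Thinned Cd27 shares were 35.9% in S303/7A and 31.3% in WT. Thinning left out 11 of the 220 S303/7A Treg and 41 of the 255 WT Treg. As a background, 4.35% of S303/7A and 2.45% of WT stromal cells held a Tnfrsf4 UMI at median depths of 6500.5 and 5918 UMIs.

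Co-detection also depended on depth. A UMI of all 4 of Tnfrsf4, Tnfrsf9, Tnfrsf18 and Icos was found in 65.5% of S303/7A Treg and 54.9% of WT Treg, and in 19.1% and 29.9% after thinning. None of the 4 was found in 4.09% of S303/7A Treg and 9.41% of WT Treg at full depth.

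Restricting Treg to cells with a Foxp3 UMI (136 S303/7A and 112 WT cells) gave ratios of 0.530 for Tnfrsf4, 0.557 for Tnfrsf18, 0.674 for Tnfrsf9, 0.747 for Icos and 0.870 for Cd27. The Treg without a Foxp3 UMI (84 S303/7A and 143 WT cells) gave 0.438 for Tnfrsf4, 0.561 for Tnfrsf18, 0.462 for Tnfrsf9, 0.545 for Icos and 0.926 for Cd27. In the cells with a Foxp3 UMI the T cell receptor complex genes Cd3d, Cd3e, Cd3g, Trac, Trbc1 and Trbc2 had ratios from 0.937 to 1.37. The Treg genes Il2ra and Ctla4 had 0.426 and 0.773. Summed macrophage markers in Treg were 9.26 UMIs per 10000 in S303/7A and 4.79 in WT. Of these markers 5 of 5 were higher and none was at 0. Leaving out cells with a marker UMI of another class kept 73 S303/7A and 129 WT Treg. The ratios of Tnfrsf4, Tnfrsf18, Tnfrsf9 and Icos were then higher, most of all for Tnfrsf9 and Icos. Their values are given in the closing section on processing. Beyond this, the part of macrophage RNA in the ratios was not tested.

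Genes around these receptors were counted in the same way, in lists chosen with earlier results of these data known. Over all genes tested in Treg, 13.5% were past the fold lower and 8.39% higher. Of the 8 genes of the CD28 family and its B7 ligands, all tested, 6 were past the fold lower and 0 higher (median log2 ratio -0.65). Cd28, the classical costimulatory receptor, was at 2.77 UMIs per 10000 in S303/7A and 4.55 in WT (0.608, 0.518 to 0.714), the inhibitory receptor gene Pdcd1 at 0.751 and 1.19 (0.630), and the ligand gene Cd274 at 0.290 and 0.465 (0.622). Among 19 tested genes of TRAF and NF-kB signalling 4 were lower and 1 higher (median -0.25). The adaptor gene Traf2 had a ratio of 0.448 (0.273 to 0.728), the NF-kB subunit gene Relb 0.547 (0.368 to 0.811), and Tnfaip3, a brake on NF-kB, 0.604 (0.424 to 0.860).

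Of 9 NF-kB survival targets 2 were lower and 1 higher in Treg, where 13.5% of all genes were lower and 8.39% higher. Bcl3 was at 0.527, Bcl2 at 0.577 and Cflar at 0.703. Among other TNF receptors 6 were tested and 2 were lower and 1 higher. Those named by the 50 UMI rule were not past the fold. They are Tnfrsf1b, the TNF receptor of Treg, at 0.738 (0.574 to 0.951), Tnfrsf1a at 0.974 and Tnfrsf13b at 1.17. Other TNF ligands counted 1 higher and 0 lower of 5, while Ltb at 0.941, Tnf at 1.08 and Tnfsf10 at 0.742 were not past the fold. None of the costimulatory ligands Tnfsf4, Tnfsf9, Tnfsf18, Cd40lg and Icosl reached 20 UMIs in Treg.

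CD8T (617 S303/7A and 693 WT cells) had a higher share of Tnfrsf4 in S303/7A, unlike Treg, and carried the highest ratio of a member in any class compared with at least 100 UMIs, that of Cd70. Of the 7 members, 2 were past the fold higher and 0 lower, in a class where 9.05% of 10215 genes were higher and 6.81% lower. The members' median log2 ratio was 0.30, beside -0.01 for all genes.

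Tnfrsf4 had 1038 UMIs in S303/7A CD8T (1.81 per 10000) and 585 in WT CD8T (1.17 per 10000), a ratio of 1.54 (1.39 to 1.71), with 1.68 and 0.844 UMIs per cell. It was seen in 53.6% of S303/7A cells and 30.0% of WT cells, and after thinning in 13.5% (10.9 to 16.4) and 8.66% (6.67 to 11), with intervals that just overlap. Both clusters of the class had higher values in S303/7A: in C06 the levels were 2.22 and 1.69 (1.32), and in C11 they were 1.26 and 0.860 (1.46). C06 held 441 of 617 S303/7A and 387 of 693 WT cells, and both ratios are smaller than that of the whole class. Of 6 members tested in C06, Cd70 alone was past the fold higher and 0 lower, where 10.1% of genes were higher and 8.17% lower. C11 likewise had 1 of 6 higher and 0 lower, where 8.58% were higher and 6.66% lower.

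Tnfrsf9 was at 3.56 in S303/7A CD8T and 2.95 in WT CD8T (1.21, 1.13 to 1.29), and Tnfrsf18 at 2.66 and 2.16 (1.23, 1.14 to 1.33). Neither was past 1.5-fold. Cd27 and Icos were near 1, at 0.995 (0.915 to 1.08) and 1.03 (0.893 to 1.2).

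Cd70, the ligand of CD27, which activated lymphocytes can make themselves, had 172 UMIs in S303/7A CD8T and 18 in WT CD8T. The levels were 0.299 and 0.0361 UMIs per 10000, a ratio of 8.29 (5.09 to 14.3). A Cd70 UMI was found in 87 of 617 S303/7A cells (14.1%) and 16 of 693 WT cells (2.31%). C06 had 84 UMIs in S303/7A and 6 in WT, and C11 had 88 and 12, so the excess was in both clusters.

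The Cd70 counts were uneven among cells. The richest cell held 36 UMIs in S303/7A and 2 in WT, and without the richest cell of each library the ratio was 7.41. At 1000 UMIs per cell the counts were near the floor, with 11 S303/7A cells (1.78%) and 0 of 693 WT cells holding a UMI, and the WT count allows a share of up to 0.531%. Stromal cells had no Cd70 UMI in either library. In cells between 2000 and 6000 UMIs the ratio was 8.74.

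Most S303/7A CD8T with a Cd70 UMI also held its receptor. At full depth Cd27 was seen in 86.2% of them and in 79.2% of the other S303/7A CD8T, and in WT in 62.5% and 70.2%. The cells with and without a Cd70 UMI were not matched for depth. The WT share rests on 16 cells. Macrophage markers summed to 9.75 UMIs per 10000 in S303/7A CD8T and 3.24 in WT CD8T, with 5 of 5 higher, and NK markers to 0.883 and 3.45. Among cells without a marker UMI of another class, 57 in S303/7A and 116 in WT, the ratio was 16.4 for Cd70 and 1.53 for Tnfrsf4. All WT CD8T together held 18 Cd70 UMIs in 16 cells, so the Cd70 ratio in this subset rests on few WT UMIs.

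**Figure D2:**
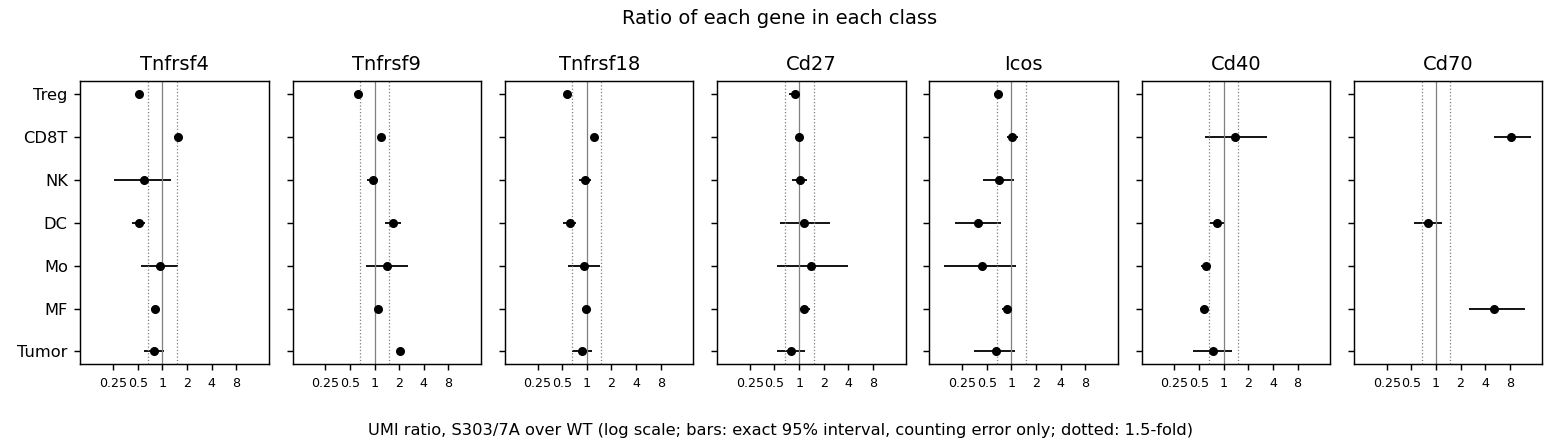
UMI ratio of each gene, S303/7A over WT (log scale), in 7 classes, with exact 95% intervals and dotted lines at 1.5-fold; pairs with fewer than 20 UMIs or without a UMI in a library are not drawn. Tnfrsf4 lies at 0.514 in Treg and 1.54 in CD8T, Cd70 at 8.29 in CD8T, and Cd40 below 1 in Mo and MF.

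Some other TNF ligands of CD8T were past the fold higher in S303/7A, in a class where 9.05% of all genes were higher and 6.81% lower. Of 10 tested ligands outside the costimulatory ones 4 were past the fold higher and 0 lower (median log2 ratio 0.21), and of the costimulatory ligands 3 of 3 tested were higher (0.73). In cluster C06 the first count was 3 higher and 2 lower of 10 (median -0.03), where 10.1% of all genes were higher and 8.17% lower. In C11 it was 5 higher and 0 lower of 8 (0.91), where 8.58% were higher and 6.66% lower. Tnfsf8, the CD30 ligand, was at 0.209 in S303/7A and 0.0721 in WT (2.89, 1.98 to 4.32), Tnfsf11, the RANK ligand, at 0.169 and 0.0641 (2.63, 1.75 to 4.05), and Tnfsf14, LIGHT, at 0.0904 and 0.0381 (2.37, 1.38 to 4.25). Next was Tnfsf13b (BAFF) at 1.80, named here, like Ltb, Tnf and Fasl, after its value was seen.

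Tnfsf9, the ligand of 4-1BB, was at 0.150 in S303/7A CD8T and 0.0681 in WT CD8T (2.19, 1.46 to 3.37). Tnfsf4, the ligand of OX40, was at 0.151 and 0.0942 (1.61, 1.11 to 2.34), and Icosl had 21 and 11 UMIs (1.66, 0.763 to 3.80). In cluster C06 the ratios of Tnfsf9 and Tnfsf4 were 3.15 and 2.16, and in C11 they were 1.41 and 1.21 with intervals that include 1. Ltb and Tnf were near 1, at 1.04 and 1.07, and Fasl was at 0.794.

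Few signalling genes in CD8T were past the fold, in a class where 9.05% of all genes were higher and 6.81% lower. Of 22 TRAF and NF-kB genes 0 were past the fold higher and 1 lower (median log2 ratio 0.12), which was Tnfaip3 at 0.633 (0.539 to 0.743). Birc2, a ubiquitin ligase bound to TRAF2, was at 1.48 and Nfkb2 at 1.45. None of the 9 survival targets was past the fold, with Bcl2a1a, Bcl2a1d and Bcl2a1b, near-identical copies whose reads can be mixed, at 1.48, 1.28 and 1.27. Of 9 other TNF receptors 4 were higher and 1 lower, among them the death receptor gene Fas at 1.84 (1.19 to 2.90) and Tnfrsf12a at 0.561 (0.351 to 0.887), with Relt at 0.801. Of 7 CD28 family genes only Cd80 was past the fold (1.65), with Ctla4 at 0.792 and Pdcd1lg2 at 1.31.

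**Figure D3:**
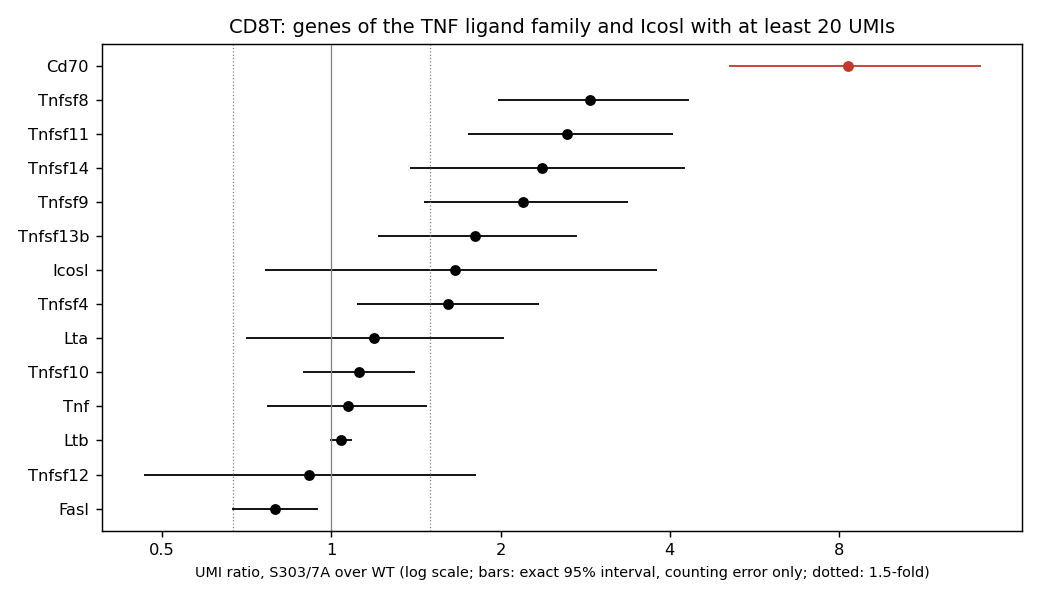
UMI ratio, S303/7A over WT (log scale), of Cd70 (red) and of Icosl and the TNF ligands with at least 20 UMIs in CD8T, ordered by ratio, with exact 95% intervals and dotted lines at 1.5-fold. Cd70 lies at 8.29, Tnfsf8, Tnfsf11, Tnfsf14 and Tnfsf9 between 2.89 and 2.19, and Ltb, Tnf and Tnfsf12 near 1.

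NK cells (194 S303/7A and 357 WT cells) had ratios near 1 for the 3 members they expressed most. Ratios were 0.953 (0.819 to 1.11) for Tnfrsf9, 0.948 (0.806 to 1.11) for Tnfrsf18 and 1.02 (0.826 to 1.26) for Cd27. Icos was at 0.706 (0.452 to 1.09). Of 5 members tested 0 were higher and 1 lower, the sparse Tnfrsf4 with 11 and 21 UMIs, in a class where 7.82% of 7184 genes were higher and 10.2% lower.

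Per cell, S303/7A NK cells had 1.65 Tnfrsf9 UMIs and WT NK cells 1.07, at median depths of 5864.5 and 3621 UMIs. Cd70 had 3 UMIs in S303/7A NK cells and 0 in WT. The list counts that follow stand beside 7.82% of all genes higher and 10.2% lower in NK cells. Of 20 tested TRAF and NF-kB genes 2 were higher and 3 lower, with Nfkb2 at 1.5, Ripk1 at 0.540 and Tnfaip3 at 0.577. Of 9 survival targets 1 was higher and 1 lower, Bcl2l1 at 1.71 (0.937 to 3.17) and Bcl2a1d at 0.610, with Bcl3 at 0.796. Of 5 CD28 family genes 3 were lower, Pdcd1 at 0.628 among them, while Cd28 at 0.877 and Pdcd1lg2 at 1.01 were not past the fold. Of 7 other TNF ligands 1 was higher and 1 lower, while Fasl at 0.706, Tnfsf12 at 0.793 and Ltb at 0.847 were not past the fold. No other TNF receptor of the 5 tested was past the fold, with Tnfrsf1a at 1.08 and Tnfrsf1b at 0.810, and the OX40 ligand Tnfsf4 was at 1.03.

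Dendritic cells (237 S303/7A and 224 WT cells) had most of their Tnfrsf4, Tnfrsf9, Cd40 and Cd70 UMIs in cluster C17, the Ccr7 cluster, Ccr7 being a marker of mature migrating DC. Icos lay more in C16, the Cd209a cluster, with 10 of 19 DC UMIs in S303/7A and 20 of 25 in WT. These C16 UMIs lay in only 3 of 117 S303/7A and 5 of 107 WT cells. C16 also held 65 and 16 UMIs of the T cell gene Cd3g, and the part of T cell RNA in its Icos was not tested. In C17 Tnfrsf9 was higher in S303/7A while Tnfrsf4 and Tnfrsf18 were lower. Over the whole class 1 of 7 members was past the fold higher and 3 lower, where 10.8% of 9038 genes were higher and 7.59% lower. Macrophage markers in DC summed to 28.1 UMIs per 10000 in S303/7A and 9.71 in WT, with 5 of 5 higher, and monocyte markers to 7.84 and 28.3, with 1 of 4 higher and none of either list at 0. In C17 the macrophage markers summed to 20.0 and 17.9 and the monocyte markers to 3.89 and 9.68. Without cells holding a marker UMI of another class, 56 S303/7A and 78 WT DC were left. The Tnfrsf4 and Tnfrsf18 ratios of the class were then lower. Beyond this, the part of these markers in the DC ratios was not tested.

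In C17 (85 S303/7A and 90 WT cells) Tnfrsf9 had 332 UMIs in S303/7A and 86 in WT, levels of 3.6 and 1.57 and a ratio of 2.29 (1.80 to 2.94). It was seen in 65.9% of S303/7A and 34.4% of WT cells, and after thinning in 29.8% (20.3 to 40.7) and 12.6% (6.48 to 21.5). Tnfrsf4 was at 1.82 and 3.30 (0.551, 0.444 to 0.684), with 1.98 and 2.01 UMIs per cell, and Tnfrsf18 at 1.38 and 2.86 (0.480, 0.377 to 0.611), with 1.49 and 1.74. In C16 Tnfrsf9 had 28 and 19 UMIs and Tnfrsf4 31 and 33. Of 5 members tested in C17, 1 was past the fold higher and 2 lower, where 10.8% of genes were higher and 12.5% lower. In C16 the counts were 1 higher and 3 lower of 6, where 14.5% were higher and 9.96% lower.

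C17 also held T cell RNA. CD8T markers summed to 0.628 UMIs per 10000 in S303/7A and 0.711 in WT, and Treg markers to 0.736 and 0.912, beside 12.1 and 15.8 in Treg themselves. Of the 6 T cell receptor complex genes 4 had ratios near those of Tnfrsf4 and Tnfrsf18 in C17, with Cd3g at 0.539 (0.340 to 0.851), Trbc2 at 0.543 (0.325 to 0.903), Trac at 0.411 (0.155 to 1.04) and Cd3d at 0.668 (0.403 to 1.11). The other 2 were above 1, Cd3e at 1.54 (0.516 to 5.53) and Trbc1 at 5.64 (2.03 to 21.8). The part of T cell RNA in the C17 ratios was not tested. The 5 richest C17 cells held 42.3% of the Tnfrsf4 UMIs in S303/7A and 42.0% in WT.

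Cd40, through which helper T cells license DC, was close in C17, with 2.14 UMIs per 10000 in S303/7A and 2.08 in WT (1.03, 0.815 to 1.31). Cd70 there was at 0.726 and 0.784 (0.925, 0.622 to 1.39), in the cluster with the highest Cd70 level of either library. Icosl, the ICOS ligand, had 40 and 11 UMIs (2.16, 1.09 to 4.67), Tnfsf4 51 and 32 (0.946) and Tnfsf9 35 and 19 (1.09). Over all DC, Tnfsf4, Tnfsf9 and Icosl were at 0.821, 0.979 and 1.06.

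The list counts in DC stand beside 10.8% of all genes higher and 7.59% lower. Of 22 TRAF and NF-kB genes in DC 1 was higher and 1 lower, with Traf6 at 2.01, Tnfaip3 at 0.615 and Rel at 0.707. Of 7 CD28 family genes 3 were lower, the inhibitory ligand gene Cd274 (PD-L1) at 0.599 (0.480 to 0.747), Pdcd1 at 0.544 and Btla at 0.633. Of 5 other TNF ligands 3 were higher, with Tnfsf8 at 2.58 and Tnfsf12 at 1.55, and Tnf was at 0.840. Of 11 other TNF receptors 3 were higher, Tnfrsf11a (RANK) at 1.66 among them, while Relt at 1.41 and Tnfrsf1b at 0.674 were not past the fold. Of 9 survival targets 1 was lower, Bcl3 at 0.569, with Cflar at 0.742 and Bcl2l1 at 0.808.

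Cd40 in monocytes and macrophages took a smaller share of UMIs in S303/7A, but more UMIs per cell. Monocytes (267 S303/7A and 519 WT cells) had 353 Cd40 UMIs in S303/7A and 500 in WT, levels of 1.33 and 2.16 and a ratio of 0.615 (0.535 to 0.706), with 1.32 and 0.963 UMIs per cell. The class differed widely: 18.0% of 8263 genes were past the fold higher and 9.0% lower, and 2 of the 6 members tested were lower and 0 higher, the other one being Icos with 7 and 14 UMIs. The 4 monocyte markers themselves summed to 103 UMIs per 10000 in S303/7A and 202 in WT, and macrophage markers in monocytes to 76.6 and 31.0. Without cells holding a marker UMI of another class, 55 S303/7A and 234 WT monocytes were left, and the Cd40 ratio was then lower. Beyond this, the part of these markers in the Cd40 ratio was not tested.

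Macrophages (2082 S303/7A and 1983 WT cells) had Cd40 at 0.327 in S303/7A and 0.569 in WT (0.574, 0.520 to 0.635), with 0.461 and 0.340 UMIs per cell at median depths of 14044 and 5388 UMIs. In each of the 5 macrophage clusters the ratio was below 1: 0.594 in C02, 0.494 in C03, 0.605 in C05, 0.624 in C09 and 0.812 in C13, the last 2 with intervals that include 1. Of the 7 members in MF 1 was higher, Cd70, and 1 lower, Cd40, where 9.70% of 12295 genes were higher and 6.71% lower. After thinning, a Cd40 UMI was found in 2.80% (2.14 to 3.61) of S303/7A macrophages and 5.53% (4.53 to 6.67) of WT macrophages. Monocyte markers, of the class with more Cd40, summed in macrophages to 10.6 UMIs per 10000 in S303/7A and 41.7 in WT, with 0 of 4 higher and none at 0, and in C02 to 24.8 and 87.1. Macrophage markers summed to 219 and 110 in the class. Their part in the Cd40 ratio of macrophages was not tested.

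Of the ligands these cells can offer, Tnfsf9 was at 0.0698 in S303/7A and 0.0953 in WT macrophages (0.732, 0.579 to 0.930), and at 0.0716 and 0.152 in monocytes (0.473, 0.255 to 0.849). Icosl was at 0.129 and 0.10 in macrophages (1.29, 1.05 to 1.6) and had 48 and 26 UMIs in monocytes (1.61, 0.977 to 2.70). Tnfsf4 had 41 UMIs in S303/7A and 9 in WT macrophages (1.84, 0.881 to 4.30). Cd40lg, the ligand of CD40, had 12 UMIs in the S303/7A library and 17 in the WT library, and Tnfsf18, the GITR ligand, had 14 and 6, so neither could be placed in a class.

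The T cell members seen in macrophages lay mostly in cluster C05 (527 S303/7A and 362 WT cells). C05 held 89.9% of the macrophage UMIs of Tnfrsf4 in S303/7A and 92.4% in WT, 91.5% and 90.4% of Cd27, 88.8% and 92.7% of Icos, 86.5% in both for Tnfrsf18, 80.8% and 86.3% of Tnfrsf9, and 87.3% and 75% of Cd70. Of Cd40 it held 28.4% and 23.3%. Of the 7 members in C05 1 was past the fold higher and 1 lower, where 10.7% of genes were higher and 6.44% lower. The same cells carried T cell receptor complex RNA: 98.5% of S303/7A and 90.1% of WT C05 cells had at least 3 UMIs of the 6 genes Cd3d, Cd3e, Cd3g, Trac, Trbc1 and Trbc2.

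Those 6 genes summed to 21.4 UMIs per 10000 in S303/7A and 22.4 in WT C05, against 0.360 to 4.21 in the other macrophage clusters. C05 cells had a median of 19016 UMIs in S303/7A and 9049 in WT. The cells with the highest doublet scores included 24.7% of S303/7A and 51.4% of WT C05 cells, beside 4.31% and 5.43% of all cells. The part of T cell RNA in these levels was not tested. Without C05 the macrophage ratio of Cd70 was 2.81 in place of 5.15, that of Tnfrsf9 1.68 in place of 1.11, and that of Tnfrsf4 1.15 in place of 0.809. In cluster C02 Tnfrsf9 had 182 UMIs in S303/7A and 30 in WT, a ratio of 3.52 (2.38 to 5.36). It was seen there in 11.2% and 2.85% of cells, and after thinning in 2.66% (1.46 to 4.43) and 0.855% (0.314 to 1.85). The 5 richest cells held 38.5% and 46.7% of these UMIs. The 6 T cell receptor complex genes summed to 0.360 and 0.397 UMIs per 10000 in C02.

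**Figure D4:**
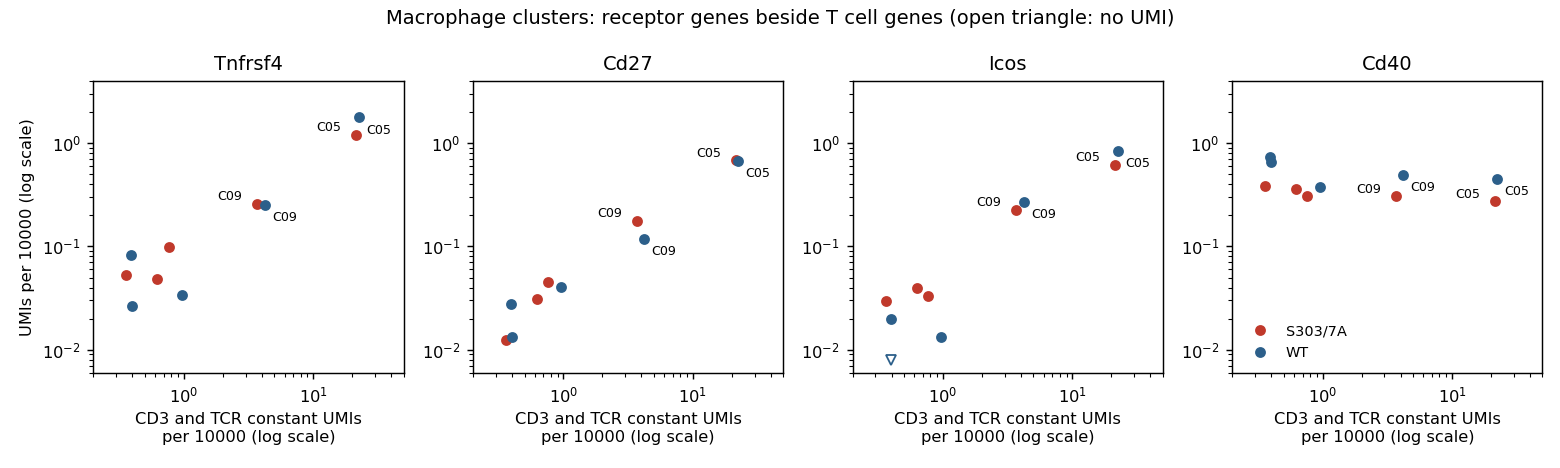
Level of Tnfrsf4, Cd27, Icos and Cd40 against the summed level of 6 T cell receptor complex genes, both in UMIs per 10000 (log scales), in the 5 macrophage clusters of each library; C05 and C09 are labelled. The T cell members are highest in C05, where the complex genes reach 21.4 (S303/7A) and 22.4 (WT), while Cd40 stays between 0.273 and 0.736 in all clusters.

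Tnfrsf9 was also found in tumor cells, for which S303/7A and WT name the mouse that carried the engrafted tumor. The labels give no tumor line. It was the only member with a level above 0.1 UMIs per 10000 in the Tumor class (935 S303/7A and 2332 WT cells), with 1661 UMIs in S303/7A and 1850 in WT, levels of 0.605 and 0.296 and a ratio of 2.04 (1.91 to 2.18). Of 6 members tested 1 was higher and 1 lower, where 7.55% of 13194 genes were higher and 6.86% lower; the lower one was Icos with 17 and 60 UMIs.

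Cluster C14 stood apart (136 S303/7A and 239 WT cells), with 1127 UMIs in S303/7A and 569 in WT. The levels were 2.49 and 0.708, a ratio of 3.51 (3.17 to 3.89), at close median depths of 32884 and 33231 UMIs. In C14 1 of 2 members tested was higher and 1 lower, where 7.48% of genes were higher and 7.40% lower. A UMI was seen in 81.6% of S303/7A and 56.5% of WT C14 cells, and after thinning in 17.6% (11.6 to 25.1) and 7.53% (4.52 to 11.6). In C01, C08 and C04 the ratios were 1.29, 1.31 and 0.856, and without C14 the ratio of the class was 0.989.

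In C14 cells each of the 6 T cell receptor complex genes was at or below 0.0486 UMIs per 10000 in S303/7A and 0.0746 in WT. Macrophage markers summed to 2.32 UMIs per 10000 in S303/7A C14 cells and 0.621 in WT, with 5 of 5 higher, and the 4 tumor markers to 100 and 40.9, with 2 of 4 higher. In the whole Tumor class the Tnfrsf9 ratio was lower without cells holding a marker UMI of another class (213 S303/7A and 1049 WT cells left). In C14 the part of these markers in the Tnfrsf9 ratio was not tested. The Tnfsf9 ligand gene was at 0.0554 in S303/7A and 0.0663 in WT tumor cells (0.835, 0.689 to 1.01). In stromal cells Tnfrsf9 was the only member with at least 20 UMIs, at 0.401 in S303/7A and 0.353 in WT (1.14, 0.731 to 1.77), in a class where 6.66% of 6159 genes were past the fold higher and 27.3% lower.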

How the data were processed

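Single cells of 2 pooled tumor libraries were profiled, 1 per genotype. The authors deposited expression as natural log values, ln(1 + x), where x is a UMI count scaled to 100000 UMIs per cell, a factor read from the values; the deposited metadata give each cell's UMI and gene counts and mitochondrial percent. Per the submitters' processing notes the tools were Cell Ranger and Seurat 3.0, and both mm10 and GRCm38 occur there. How cells were filtered and clustered is not given in the sources used here. UMIs were recovered by undoing the log: 99.94% of values were whole to 0.1 UMI and genes per cell matched in 11456 of 11456 cells.

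UMIs were summed per class and library, and the 8 classes holding 50 or more cells per library were compared. Ratios carry exact conditional (Clopper-Pearson) 95% intervals and shares exact binomial ones. No test between genotypes was possible with 1 library each. A count of 0 allows 3 counts or the exact upper bound. Cells were thinned to 1000 UMIs, leaving out 63 S303/7A and 199 WT cells. Doublets were scored with Scrublet (scanpy 1.11.5), and every cell was kept in the values reported. Its automatic threshold marked 0.0833% of S303/7A and 0.842% of WT cells, so the alternative removed the 207 and 361 highest scores.

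The members and lists were chosen with earlier results of these data known. Named genes are the members, 5 ligands where they had 20 UMIs, and in Treg, CD8T, NK and DC the 3 genes of each list with the largest absolute log2 ratio among those with 50 UMIs, plus the 3 genes most like each member. Which 12 ratios lead, and 5 further settings, were chosen after values were seen. Gene positions come from GENCODE M21 and promoters from RefSeq (GRCm38.p6). The ratio and its interval were tested on simulated counts. Python 3.11.15, numpy 2.4.6, scipy 1.17.1 and pandas 2.3.3 were used. Tnfrsf19 of the lists is not analysed here.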

Additional observations from a re-analysis of the deposited data

Results flagged for a closer look

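Tnfrsf4 went in opposite directions between classes under the same contrast: its UMI ratio, S303/7A over WT, was 1.54 in CD8T, 0.514 in Treg and 0.513 in DC. The difference between the classes was not tested, since there was 1 library per genotype. Counted as UMIs per cell the ratios were 1.99, 0.957 and 0.941.

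Tnfrsf9 was higher in S303/7A in DC (1.67) and in Tumor cells (2.04) and lower in Treg (0.623), and this difference was not tested either. As UMIs per cell all 3 were above 1, at 3.06, 2.24 and 1.16.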

How the results depend on the processing

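No paired analysis was possible because each genotype has 1 library and the labels give no replicate numbers. Of the 12 leading ratios under their alternatives, 81 values stayed within the interval of the ratio as reported, 42 moved beyond it and 6 that had been past 1.5-fold crossed 1; beyond what each setting itself changes, the causes were not tested.

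As UMIs per cell with no scaling, which keeps the depth gap, Treg gave 1.16 for Tnfrsf9, 1.07 for Tnfrsf18, 1.27 for Icos and 0.957 for Tnfrsf4; Tnfrsf18 in DC gave 1.13, Cd40 in MF 1.35 and in Mo 1.37, Tnfrsf4 in CD8T 1.99 and in DC 0.941, and Tnfrsf9 in DC 3.06 and in Tumor 2.24.

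Thinned to 1000 UMIs, Treg gave 0.640 for Tnfrsf4, 0.706 for Tnfrsf9, 0.655 for Tnfrsf18 and 0.850 for Icos; Tnfrsf4 in DC gave 0.635, Cd40 in MF 0.505 and in Mo 0.855, and Tnfrsf9 in Tumor 1.89. Cd70 in CD8T gave no thinned ratio because no WT UMI was left. In cells of 2000 to 6000 UMIs, Treg gave 0.684 for Tnfrsf4, 0.887 for Tnfrsf9, 0.763 for Tnfrsf18 and 0.989 for Icos, and Cd40 in Mo 0.817; DC and Tumor had too few such cells. After dropping each library's shallowest 10% of cells, which left 103 of 220 S303/7A and 119 of 255 WT Treg, Treg gave 0.428 for Tnfrsf4, 0.517 for Tnfrsf9 and 0.495 for Tnfrsf18.

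Without cells with a marker of another class, Treg gave 0.675 for Tnfrsf4, 0.933 for Tnfrsf9, 0.684 for Tnfrsf18 and 0.926 for Icos; DC gave 0.373 for Tnfrsf4 and 0.491 for Tnfrsf18, Cd40 in Mo 0.431, Cd70 in CD8T 16.4 and Tnfrsf9 in Tumor 1.66. Tnfrsf4 in NK (3.07) and Icos in Tumor (1.04) then crossed 1.

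As a mean over cells with pseudocounts of 0.1 and 0.01, Treg gave 0.637 and 0.636 for Tnfrsf4, 0.739 and 0.738 for Tnfrsf9, and 0.658 and 0.657 for Tnfrsf18. With 0.1, Cd70 in CD8T gave 2.71 and Cd40 in MF 0.656; with 0.01, Tnfrsf9 in Tumor gave 2.27. With clusters weighted equally, Tnfrsf4 in CD8T gave 1.37 and Tnfrsf9 in Tumor 2.34, and without cluster C14 the Tumor ratio of Tnfrsf9 was 0.989.

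Thinning turned round the S303/7A minus WT difference in the percent of cells with a UMI: in Treg -2.63 for Tnfrsf4, -8.16 for Tnfrsf9 and -6.79 for Icos, in DC -3.20 for Tnfrsf18 and in MF -2.72 for Cd40. The share of genes past 1.5-fold depends on the filter: in Treg 21.9% in both directions became 8.43% with at least 100 UMIs and 36.6% with 1 UMI in each library, and in CD8T 15.9% became 7.84% and 24.4%. Tnfrsf4 and Cd70 in CD8T stayed above 1, and Tnfrsf4 in Treg and DC below 1, under every alternative that gave a value.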

Other observations

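Plasmacytoid dendritic cells, too few to compare, held Tnfrsf18 at 0.612 UMIs per 10000 in 32 S303/7A cells and 0.542 in 33 WT cells, with a UMI in 40.6% and 33.3% of cells, and Cd40 at 0.266 and 0.197. Their 6 WT Cd70 UMIs all lay in 1 cell (3.03% of cells), and S303/7A pDC had none. In the granulocyte class (66 S303/7A and 48 WT cells) no member had more than 5 UMIs in a library.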
